A study of Mus musculus with 6 samples.

Results

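The genes described here are 31 targets, sensors and transcription factors of the unfolded protein response and the integrated stress response, taken by gene symbol from a table of 50600 mouse genes. They were counted in 3 branches named for the transcription factor each branch is known by: 13 genes for ATF6, 9 for XBP1 and 9 for ATF4. Targets of the branches overlap in cells, so each gene was given 1 branch for counting only. RNA from whole liver of C57BL/6 mice at about 1 month of age was sequenced in 6 libraries. The 3 Dicer LKO libraries carried the genotype Dicer loxp/loxp;Alb-cre, in which a Cre recombinase under the albumin promoter, active in hepatocytes, deletes loxP-flanked Dicer. The 3 control libraries carried Dicer loxp/loxp without the Cre, so both groups share the floxed allele, although the series text calls the controls wild-type. No group carries the Cre alone. The labels do not say whether the samples of a group came from separate animals, so the p-values rest on the spread among these libraries, part of which may be technical.

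Hepatocytes fold large amounts of secreted protein in the endoplasmic reticulum (ER). When unfolded protein builds up there, the membrane sensors ATF6, IRE1 (Ern1) and PERK (Eif2ak3) signal to the nucleus: ATF6 is cleaved to a transcription factor, IRE1 splices the Xbp1 message so that it encodes an active factor, and PERK phosphorylates the translation factor eIF2, which favours translation of ATF4. ATF6 and XBP1 raise chaperones and the ER-associated degradation (ERAD) machinery that returns misfolded protein to the proteasome. ATF4, which kinases other than PERK also control, raises genes of amino acid supply and of stress-induced cell death. Mature miRNAs are released from their precursors by Dicer, and the study compared liver messenger RNA with and without it in hepatocytes. Xbp1 splicing, cleavage of ATF6 and phosphorylation of eIF2 cannot be read from values per gene.

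The promoters of the members are shown first because they hold the letters by which these branches are recognised. RefSeq promoters on GRCm38.p6, from 250 bases before to 50 bases after a start site, were matched by symbol for 28 members; Atf6, Hyou1 and Manf had no entry. The ER stress element, searched on both strands as CCAAT, 9 bases of any kind and CCACG, was present in 9 of the 28 (32.1%) against 39 of 32851 promoters of all genes (0.12%). Of these 9 members, 6 belong to the ATF6 branch and 3 to the XBP1 branch. The matches follow, 5′ to 3′ in the direction of the element, with the fixed letters in capitals.
Hspa5: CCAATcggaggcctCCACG
Calr: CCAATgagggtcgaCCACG
Canx: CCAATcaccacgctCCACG
Pdia6: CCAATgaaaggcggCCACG
Creld2: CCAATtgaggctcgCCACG
Hsp90b1 (nearer match): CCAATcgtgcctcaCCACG
Hsp90b1 (farther match): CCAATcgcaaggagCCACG
Derl3: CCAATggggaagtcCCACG
Dnajc3: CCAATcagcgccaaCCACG
Syvn1: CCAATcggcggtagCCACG
Each spacer differed from the others, while its length was fixed by the search. The matches began between 44 bases (Syvn1) and 212 bases (Hsp90b1) before the start site. A shorter form, ATTGG, 1 base of any kind and CCACG, was present in Herpud1 and Dnajb11 and in 12 of 32851 promoters (0.04%).
Herpud1: ATTGGgCCACG
Dnajb11: ATTGGcCCACG
The C/EBP-ATF response element, searched as TGATGNAA on both strands, was present in 5 of 28 members (17.9%) against 1304 of 32851 promoters (3.97%). It was found in Asns, Atf3, Chac1 and Trib3 of the ATF4 branch and in Herpud1 of the ATF6 branch, which therefore held both kinds of element.
Asns: TGATGaAA
Atf3: TGATGcAA
Chac1: TGATGcAA
Trib3: TGATGtAA
TGACGTGG was found in no member promoter and in 222 of 32851 promoters (0.68%), and TGACGTCA, the cyclic AMP response element, in Ppp1r15a and in 588 (1.79%). The ER stress elements and TGACGTGG share the block CCACG, read on the other strand in the latter, so their matches can overlap. These counts describe letters in this window only, and several members are known targets because of such elements.

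**Figure D1:**
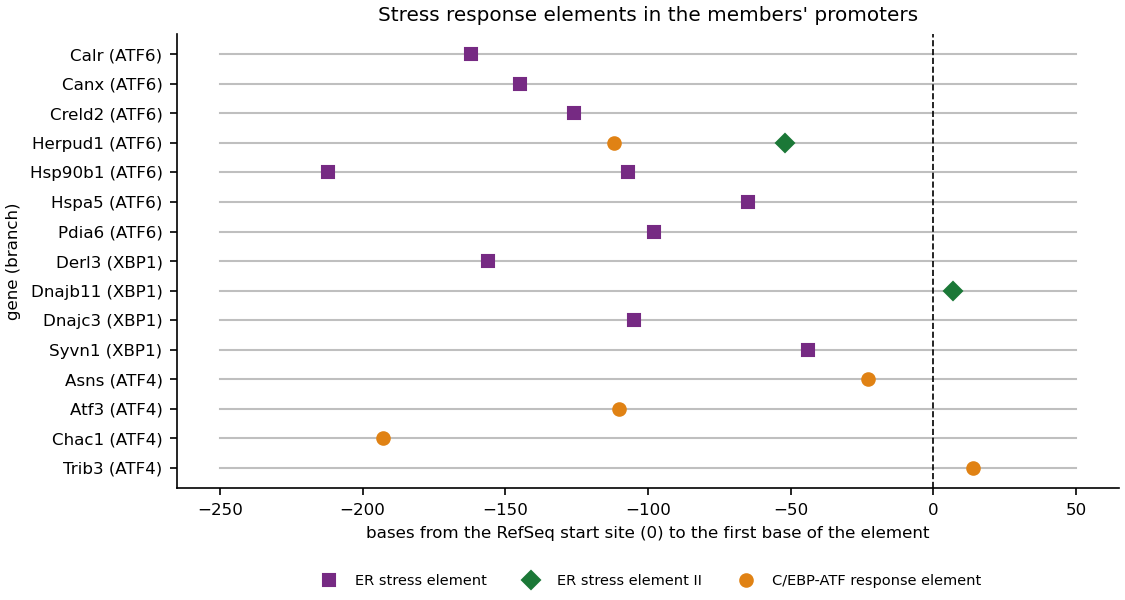
Distance in bases from the RefSeq start site (0) to the first base of each matched element, for the 15 members with at least 1 match of these 3 kinds; grey lines span the window searched and colours mark the kind of element. ER stress elements lie before the start site in 9 members, all of the ATF6 and XBP1 branches, and C/EBP-ATF elements lie in 4 ATF4-branch members and Herpud1.

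The complete windows of 3 genes to which the results return are given with their matched element in capitals, each 5′ to 3′ along the gene. Hspa5 encodes the chaperone BiP and is the standard readout of the response (chr2:34771840-34772139, plus strand). Syvn1 encodes the ERAD ubiquitin ligase HRD1 and had the largest difference between groups in the XBP1 branch with all libraries (chr19:6046326-6046625, plus strand). Chac1 encodes a glutathione-degrading enzyme and had the largest in the ATF4 branch with TMM factors and all libraries (chr2:119350992-119351291, plus strand); its capitals are the element read on the opposite strand.
Hspa5: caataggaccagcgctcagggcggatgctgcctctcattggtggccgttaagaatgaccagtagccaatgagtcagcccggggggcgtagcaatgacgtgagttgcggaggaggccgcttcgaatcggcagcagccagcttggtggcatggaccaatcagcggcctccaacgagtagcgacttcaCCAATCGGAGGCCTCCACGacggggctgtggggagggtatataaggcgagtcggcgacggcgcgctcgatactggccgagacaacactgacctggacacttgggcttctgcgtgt
Syvn1: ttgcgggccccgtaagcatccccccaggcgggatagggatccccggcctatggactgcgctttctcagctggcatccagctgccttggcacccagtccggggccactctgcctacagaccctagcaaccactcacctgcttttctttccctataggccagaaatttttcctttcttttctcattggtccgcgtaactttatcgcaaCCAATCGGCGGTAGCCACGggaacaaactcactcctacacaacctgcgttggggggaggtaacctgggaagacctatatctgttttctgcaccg
Chac1: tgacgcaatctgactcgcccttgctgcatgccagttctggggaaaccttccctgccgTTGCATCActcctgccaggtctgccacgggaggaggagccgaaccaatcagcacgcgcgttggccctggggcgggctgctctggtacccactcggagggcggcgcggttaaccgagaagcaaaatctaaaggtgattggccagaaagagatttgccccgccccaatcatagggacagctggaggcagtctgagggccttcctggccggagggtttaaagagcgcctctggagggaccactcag

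Library totals ran from 14141973 counts in control replicate 3 to 25049749 in Dicer LKO replicate 3. Control replicate 3 also stood apart in its mitochondrial share, 10.2% of counts against 4.62% to 6.46% in the others. Dicer1, the targeted gene, was measured at 28.9, 31.2 and 24.4 CPM (counts relative to a library total adjusted by its TMM factor) in Dicer LKO and at 42.6, 69.2 and 56.1 CPM in controls. The groups did not overlap, with a log2 fold change of -0.99 (SE 0.20) and an adjusted p of 0.0622 in edgeR's quasi-likelihood test; DESeq2 called it at 0.0012 and the adjusted p ran from 0.0327 to 0.18 when 1 library was left out. The value covers the whole gene, and the labels do not name the deleted exons. Of the liver's defining genes, Hnf4a was at 479 to 582 CPM in Dicer LKO and 473 to 507 CPM in controls. Alb was at 45460 to 51059 CPM in Dicer LKO and 24333 to 52052 CPM in controls. Summed hepatocyte markers were at 93828 to 97165 against 57109 to 96735 CPM (10 markers), and the groups overlapped. The log2 fold changes of these markers were positive in 6 and negative in 4. Summed markers were higher in every Dicer LKO library than in every control for erythroid cells (1144 to 2136 against 279 to 377 CPM, 10 markers), bile duct (147 to 275 against 38.5 to 55.1 CPM, 10 markers), neutrophils (37.6 to 94.5 against 4.08 to 26.9 CPM, 10 markers), stellate cells and fibroblasts (573 to 644 against 410 to 481 CPM, 11 markers) and endothelium (511 to 630 against 402 to 486 CPM, 10 markers). Spp1 alone made up most of the bile duct sum in every library. Not all tested markers of these types rose. Their log2 fold changes were positive in 7 and negative in 2 for bile duct, and 9 and 2 for stellate cells and fibroblasts. For endothelium they were positive in 7 and negative in 3, for erythroid cells 7 and 1, and for neutrophils 9 and 0. Macrophage markers overlapped (526 to 621 against 247 to 556 CPM, 12 markers). Heart muscle markers were lower in every Dicer LKO library (0.524 to 11.8 against 13.3 to 49.6 CPM, 10 markers). In whole liver, fewer cells of a type and less RNA per cell cannot be told apart, and the part of these cell types in the members' values was not tested.

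No member was called. Over all genes, edgeR's quasi-likelihood test called 185 of 14314 (1.29%) at an adjusted p under 0.05, and all 31 members passed its filter on low counts. DESeq2, which called 1098 of 16222 genes (6.77%), called 1 member, Syvn1. At an unadjusted p under 0.05, edgeR marked 4 members (12.9%), Ern1, Syvn1, Atf4 and Chac1, against 21.0% of all genes. In CPM, libraries of the groups did not overlap for 4 members (12.9%), against 28.0% of all genes: Chac1 and Eif2ak3 were higher in Dicer LKO, and Ern1 and Syvn1 lower. Both shares were below the background of all genes.

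The members' log2 fold changes were positive in 16 and negative in 15, with a median of 0.06 beside -0.01 over all genes tested. The branch medians were 0.11 for ATF6 (8 positive, 5 negative), -0.14 for XBP1 (3 positive, 6 negative) and 0.18 for ATF4 (5 positive, 4 negative). The 95% intervals of 19 of 31 members lay between a halving and a doubling, beside 8853 of all 14314 genes tested. A doubling lay above the interval of 26 members and a halving below that of 23. Over all genes tested these counts were 11477 and 11234, so the intervals do not set the members apart. The ATF4 branch was the least precise, with 3 of 9 intervals inside those bounds, against 10 of 13 for ATF6 and 6 of 9 for XBP1. Scaling by library totals in place of TMM factors moved the median of all genes to -0.13, and the medians then stood at -0.01 for ATF6, -0.27 for XBP1 and 0.03 for ATF4. The ATF4 median was -0.20 without Dicer LKO replicate 2 and -0.16 without Dicer LKO replicate 3, so its sign rested on single libraries.

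**Figure D2:**
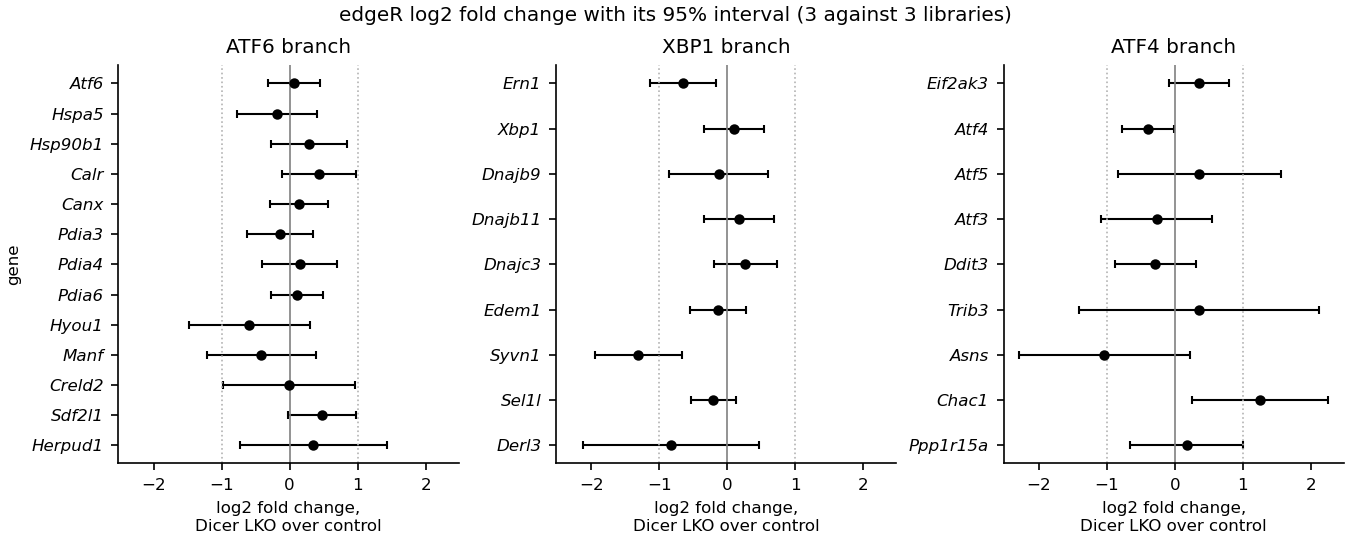
Log2 fold change of each member, Dicer LKO over control, as points with the 95% interval of edgeR's fit as bars (3 against 3 libraries); dotted lines mark a halving and a doubling. The intervals of Syvn1, Ern1 and Atf4 lie below 0 and that of Chac1 above 0. Inside the dotted lines lie 19 of 31, beside 8853 of all 14314 genes tested.

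Within the Dicer LKO group, 1 library stood above the others for most members. Dicer LKO replicate 2 had the highest value of its group for 27 of 31 members (12 of 13 ATF6, 8 of 9 XBP1 and 7 of 9 ATF4), against 39.2% of all genes tested. With library totals it was the highest for 21 of 31, against 24.4% of all genes. Dicer LKO replicate 3 had the lowest value of its group for 20 of 31. Replicates 1, 2 and 3 of Dicer LKO had a median log2 ratio of the members to the control mean of -0.23, 0.27 and -0.25, and those of the controls -0.05, -0.01 and 0.05. By branch, replicate 2 stood at 0.34 for ATF6, 0.12 for XBP1 and -0.09 for ATF4, while replicates 1 and 3 lay at or below -0.06 in each. Without replicate 2 the median over members was -0.20, and 13 members did not overlap between groups, 11 of them lower in Dicer LKO, 41.9% against 37.5% of all genes. Without replicate 3 in its place, 9 members did not overlap (29.0% against 36.6%), 7 of them higher, and 2 members had an unadjusted p under 0.05 in edgeR's test, against 15.6% of all genes. Without control replicate 2, 9 members did not overlap (29.0% against 39.5%), 4 higher and 5 lower.

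Replicate 2 had the lowest mitochondrial share of the 6 libraries, 4.62%. Plasma cells make secreted antibody and carry high levels of these chaperones; they and B cells had summed markers of 185, 79.7 and 311 CPM in the Dicer LKO libraries in order and 30.0 to 82.1 CPM in controls (11 markers, 8 tested), so replicate 2 was the lowest of its group. Pancreatic acinar markers summed to 9.72 CPM in replicate 2 and to 1.28 CPM or less in the others; that sum was all Cela2a, and Cpa1, Cpb1, Cel, Cela3b and Clps were at 0 in every library. The part of plasma cell, B cell and pancreatic RNA in the members' values was not tested.

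**Figure D3:**
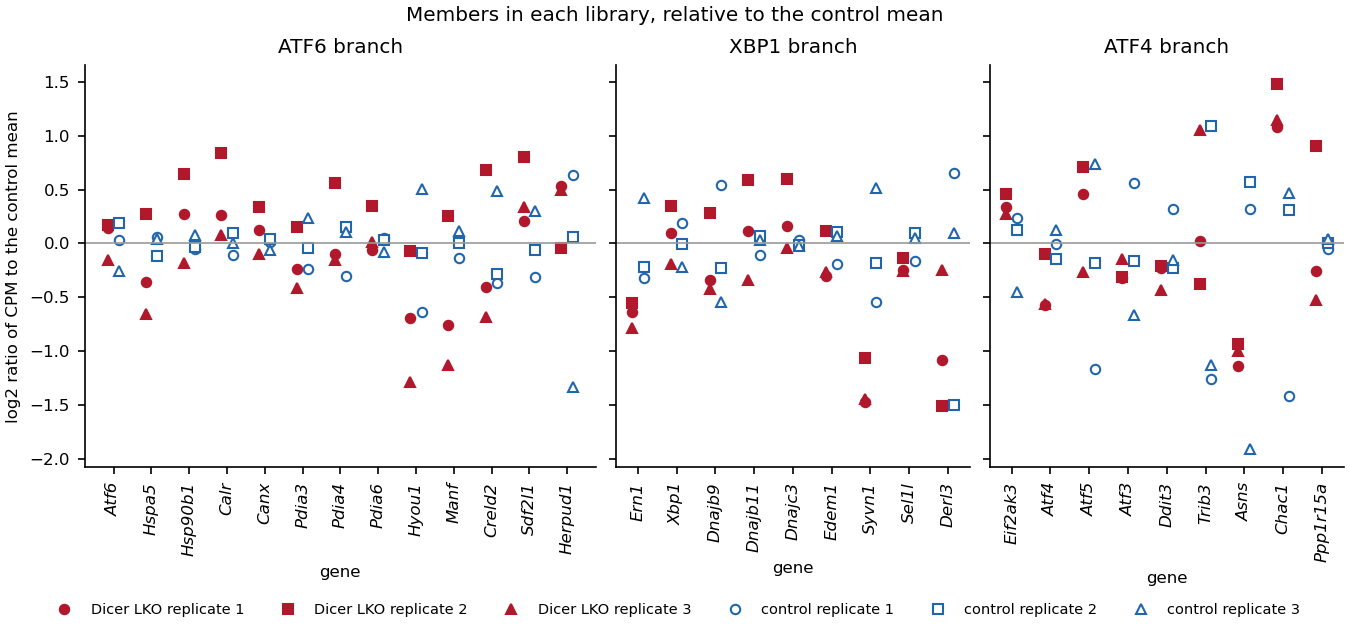
Log2 ratio of each member's CPM to its control mean, by branch; filled red symbols are Dicer LKO libraries, open blue symbols controls, and circles, squares and triangles are replicates 1, 2 and 3. The red squares (Dicer LKO replicate 2) are the uppermost red symbols for 27 of 31 genes.

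Among the sensors, Ern1 (IRE1, chromosome 11, 106394650 to 106487852, GRCm38) was measured at 56.6, 60.2 and 51.3 CPM in Dicer LKO and at 70.4, 75.8 and 118 CPM in controls. Every Dicer LKO library was under every control, and control replicate 3 was the highest. The log2 fold change was -0.65 (SE 0.21, 95% interval -1.13 to -0.17), with an adjusted p of 0.141 in edgeR's quasi-likelihood test and of 0.0801 to 0.322 over its alternatives. Without control replicate 3 it was smallest, at -0.36. Eif2ak3, which encodes PERK, gave the opposite order, with 21.1, 23.0 and 20.3 CPM against 19.7, 18.3 and 12.2 CPM. Its groups were also apart in CPM, by 0.58 CPM at the nearest, and the log2 fold change was 0.36 (SE 0.19, adjusted p 0.325 by edgeR). In deposited TPM (corrected for length) the groups of Eif2ak3 overlapped. They were at 3.70, 3.74 and 3.91 against 3.96, 3.41 and 2.59 TPM, with control replicate 1 the highest. Atf6 itself was at 120, 123 and 98.2 CPM against 111, 124 and 91.3 CPM, with overlapping groups and a log2 fold change of 0.06 (interval -0.32 to 0.45), which library totals turned to -0.06.

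Of the lumenal chaperones of the ATF6 branch, Hspa5 (BiP, chromosome 2, 34771970 to 34777547) was at 365, 564 and 298 CPM in Dicer LKO and at 487, 432 and 482 CPM in controls. Dicer LKO replicate 2 was the highest of the 6 libraries on this scale. In deposited TPM (corrected for length) it was below control replicate 3 (170 against 186). Dicer LKO replicates 1 and 3 lay below all controls. The log2 fold change was -0.19 (SE 0.26, interval -0.78 to 0.40, adjusted p 0.712 by edgeR), and -0.45 without replicate 2. Hsp90b1, the ER form of HSP90, was at 825, 1066 and 602 CPM against 660, 669 and 721 CPM, for a log2 fold change of 0.28 (interval -0.28 to 0.85). Calr, the lectin chaperone calreticulin, was at 558, 831 and 491 CPM against 432, 496 and 465 CPM. Only replicate 3 reached into the control range, and the log2 fold change was 0.43 (SE 0.24, interval -0.12 to 0.98, adjusted p 0.343 by edgeR).

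The lectin chaperone Canx and the disulfide isomerases Pdia3, Pdia4 and Pdia6 had log2 fold changes between -0.15 and 0.14, all with overlapping groups and with intervals inside a halving and a doubling. Pdia6 turned from 0.11 to -0.01 with library totals. Hyou1, a nucleotide exchange factor for BiP, was at 101, 156 and 67.0 CPM against 105, 153 and 231 CPM, a log2 fold change of -0.59 (SE 0.38, interval -1.49 to 0.30). Sdf2l1, a partner of BiP that keeps its clients soluble, was at 15.6, 23.6 and 17.1 CPM against 10.9, 13.02 and 16.7 CPM. Replicate 1 was within the control range and the others above it, with a log2 fold change of 0.47 (SE 0.22, adjusted p 0.257 by edgeR). Hspa5 and its partners Hyou1 and Sdf2l1 thus had log2 fold changes of different sign, none of them called.

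The secreted or lumenal factors Manf and Creld2 gave log2 fold changes of -0.42 and -0.01. Manf, a secreted protein retained by BiP, was at 23.6, 47.5 and 18.1 CPM against 36.2, 39.7 and 43.1 CPM. On this scale Dicer LKO replicate 2 was the highest of all libraries and replicates 1 and 3 the lowest. In deposited TPM, Dicer LKO replicate 2 was just below control replicate 3 (46.2 against 46.3). Creld2 followed the same order within Dicer LKO, 12.0, 25.5 and 9.92 CPM, against 12.3, 13.1 and 22.4 CPM. Herpud1, a membrane protein that organises the ERAD complex, was the exception in the branch: Dicer LKO replicate 2 was the lowest of its group. It was at 344, 231 and 336 CPM against 371, 249.4 and 94.9 CPM. Its log2 fold change of 0.35 (SE 0.46) was -0.004 without control replicate 3.

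**Figure D4:**
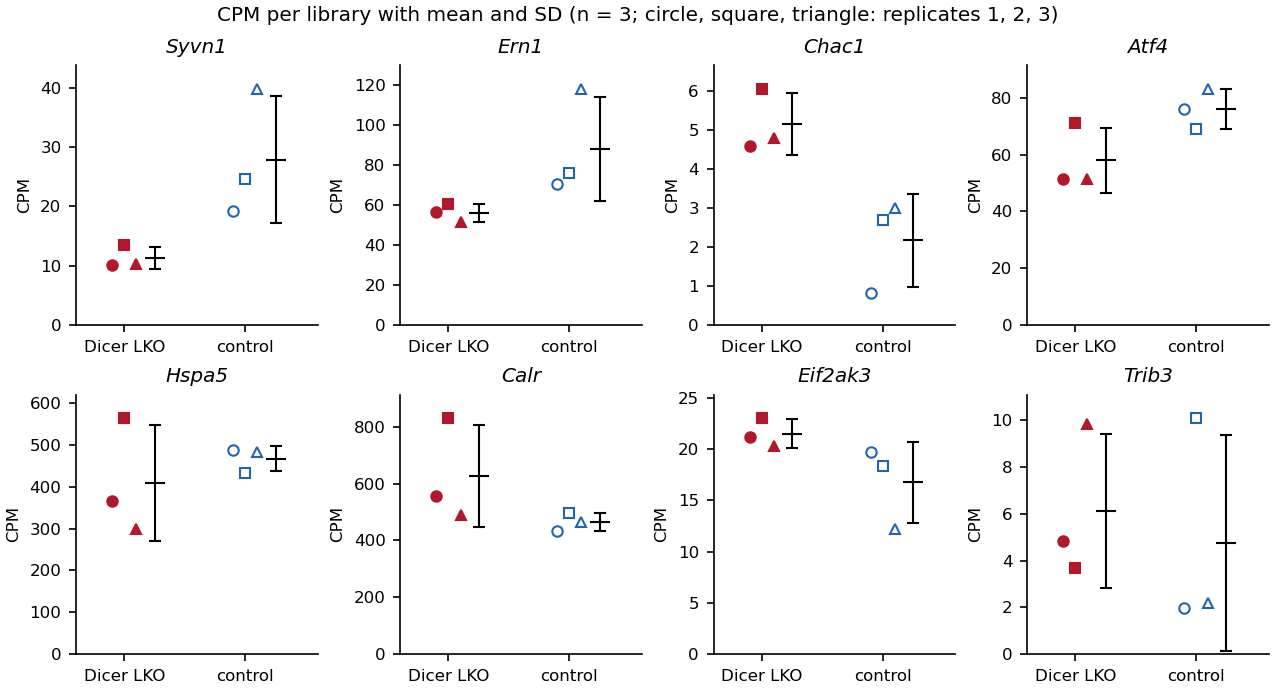
CPM of 8 members in each library, with axes from 0; symbols are replicates 1, 2 and 3 and the bars at the right of each group show the mean and SD (n = 3). Groups do not overlap for Syvn1, Ern1, Chac1 and Eif2ak3, and the square of Dicer LKO replicate 2 tops Hspa5 and Calr.

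Syvn1 (HRD1, chromosome 19, 6046576 to 6053712, plus strand, GRCm38) had the largest difference of the 31 members with all libraries and no term for replicate number. With replicate number as a block, Chac1 exceeded it in size (1.39 against -1.25). Chac1 also did so without Dicer LKO replicate 1 (1.34 against -1.23). Chac1 (1.31) and Derl3 (-1.26) exceeded its -1.24 without Dicer LKO replicate 3. Trib3 (1.58) and Chac1 (1.48) exceeded its -1.37 without control replicate 2. Without control replicate 3, Chac1 (1.57), Asns (-1.44) and Atf5 (0.96) exceeded its -0.94. Without Dicer LKO replicate 2 and control replicate 3 together, chosen after seeing the data, Asns (-1.51) and Chac1 (1.42) exceeded its -1.11. Syvn1 was at 10.1, 13.4 and 10.3 CPM in Dicer LKO, a mean of 11.3 ± 1.85 (SD, n = 3). Controls were at 19.2, 24.6 and 39.8 CPM, a mean of 27.9 ± 10.7 (SD, n = 3). The groups did not overlap, with a nearest gap of 5.81 CPM beside a range of 20.6 CPM within the controls, of which replicate 3 was the highest. The log2 fold change was -1.31 (SE 0.27, interval -1.94 to -0.67) with an adjusted p of 0.0695 in edgeR's quasi-likelihood test. Syvn1 was called by DESeq2 (adjusted p 0.00103), by edgeR without the filter on low counts (0.0351) and by edgeR without control replicate 1 (0.0378), and over all alternatives the adjusted p ran up to 0.198. Without control replicate 3 the log2 fold change was -0.94. An exon of Syvn1 overlaps Mrpl49 on the other strand, and the strand setting of the counting is not given in the sources used here, so reads of these genes may be mixed. The same holds for Hsp90b1, Pdia3, Pdia4, Pdia6, Manf, Dnajb9, Eif2ak3, Atf5, Ddit3 and Ppp1r15a, whose exons also overlap other annotated genes.

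Its partners in ERAD gave smaller values. Sel1l, the adaptor that holds HRD1 in its complex, was at 144, 156 and 144 CPM against 153, 182 and 177 CPM, a log2 fold change of -0.21 (SE 0.14, interval -0.54 to 0.12). Edem1, which extracts mannose-trimmed glycoproteins from folding, was at 167, 224 and 171 CPM against 181, 222 and 216 CPM (log2 fold change -0.14, interval -0.55 to 0.28). Derl3, a derlin with 15 to 71 counts per library, was at 0.963, 0.715 and 1.71 CPM against 3.20, 0.720 and 2.17 CPM. Its groups overlapped, and its interval of -2.13 to 0.46 excluded a doubling and not a halving. Sel1l and Edem1 were within the spread of the libraries, with intervals that excluded both.

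Xbp1, the transcription factor of the branch, was at 188, 225 and 154 CPM against 202, 175 and 152 CPM, with a log2 fold change of 0.10 (SE 0.19, interval -0.35 to 0.55) that library totals turned to -0.02. The HSP40 co-chaperones that pair with BiP had overlapping groups. Dnajc3, also known as an inhibitor of eIF2 kinases, was at 287, 386 and 248 CPM against 261, 253 and 252 CPM, a log2 fold change of 0.26 (interval -0.20 to 0.73). Its controls differed by 8.99 CPM at most, and its Dicer LKO libraries by 138 CPM. Dnajb11 and Dnajb9 had log2 fold changes of 0.17 and -0.13, and that of Dnajb9 was 0.25 without control replicate 1.

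In the ATF4 branch, Atf4 (chromosome 15, 80255184 to 80257541) was at 51.4, 71.3 and 51.4 CPM in Dicer LKO and at 76.0, 69.1 and 83.2 CPM in controls. Replicate 2 alone reached the control range. The log2 fold change was -0.39 (SE 0.17, interval -0.78 to -0.005), with an adjusted p of 0.233 in edgeR's quasi-likelihood test and 0.126 to 0.531 over its alternatives. Atf5, a related factor, scattered from 28.8 to 107 CPM in controls and from 53.7 to 105 CPM in Dicer LKO. Atf3 and Ddit3 (CHOP), factors induced in prolonged stress, had 17 to 67 counts per library and log2 fold changes of -0.27 and -0.29. Their Dicer LKO libraries were close to each other, 1.38 to 1.55 CPM for Atf3 and 1.79 to 2.10 CPM for Ddit3.

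Of the effectors, Chac1 (chromosome 2, 119351229 to 119354381) was at 4.59, 6.05 and 4.78 CPM in Dicer LKO and at 0.811, 2.69 and 2.997 CPM in controls, from 18 to 127 counts per library. All Dicer LKO libraries lay above all controls. The log2 fold change was 1.26 (SE 0.43, interval 0.26 to 2.26), with an adjusted p of 0.158 in edgeR's quasi-likelihood test and 0.0724 to 0.31 over its alternatives. Without control replicate 1, the lowest, it was 0.86. With library totals Asns (-1.13) was slightly larger in size than Chac1 (1.12), and without control replicate 2 Trib3 (1.58) exceeded Chac1 (1.48). Without Dicer LKO replicate 2 and control replicate 3 together, Asns (-1.51) exceeded Chac1 (1.42). Asns, asparagine synthetase, was at 0.871, 1.001 and 0.956 CPM against 2.39, 2.83 and 0.510 CPM, and control replicate 3 with 8 counts placed the groups in overlap. Its log2 fold change was -1.04 (SE 0.54) and its interval of -2.29 to 0.22 excluded a doubling.

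Trib3, a pseudokinase that restrains ATF4 and CHOP, had 1 high library in each group: 4.82, 3.67 and 9.84 CPM against 1.98, 10.1 and 2.17 CPM. Its log2 fold change of 0.36 had the widest spread under leaving out 1 library, -0.16 without Dicer LKO replicate 3 and 1.58 without control replicate 2. Ppp1r15a (GADD34), which directs the phosphatase that reverses eIF2 phosphorylation, was at 8.85, 19.7 and 7.37 CPM against 10.2, 10.6 and 10.9 CPM. Dicer LKO replicate 2 alone exceeded the controls, and the log2 fold change of 0.18 was -0.34 without it. Chac1, Trib3, Asns and Atf3 all hold a C/EBP-ATF element in their promoters and had log2 fold changes of 1.26, 0.36, -1.04 and -0.27. Of the 37 genes with an ER stress element in their promoter, 9 were members. Any on chr18 were left out before the genes were matched to the fit, and 17 of the others were tested. Their median log2 fold change was -0.01, and edgeR called 0, with 4 at an unadjusted p under 0.05 (23.5%, against 21.0% of all genes), while DESeq2 called 2, Syvn1 and Spats2l (11.8%, against 6.77%).

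Levels between genes were compared as deposited TPM, which is corrected for length. The order in controls ran from Calr (209 ± 11.4 TPM, SD, n = 3), Hsp90b1 (194 ± 15.8) and Hspa5 (168 ± 18.4) to Chac1 (1.097 ± 0.609), Asns (0.937 ± 0.474) and Atf3 (0.743 ± 0.376). Neighbours in that order overlapped in 25 of 30 pairs; the steps without overlap were Hspa5 to Canx, Pdia4 to Manf, Sel1l to Ern1, Syvn1 to Ppp1r15a and Ppp1r15a to Eif2ak3. The median level in controls was 71.6 TPM in the ATF6 branch, 26.7 in the XBP1 branch and 2.64 in the ATF4 branch, and in Dicer LKO 70.5, 20.5 and 2.41. Calr, Hsp90b1 and Hspa5 were the most abundant members in both groups, and Asns and Atf3 the least abundant. Within the ATF4 branch, Atf4 (36.4 ± 4.65 TPM in controls) and Atf5 (29.2 ± 18.9) were the abundant members. Summed over members, Dicer LKO replicates 1, 2 and 3 held 1351, 1633 and 1194 TPM and the controls 1396, 1354 and 1473 TPM.

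Between groups, TPM carries no correction for a shift in composition, and the scale matters for members with little spread. Sel1l was at 20.1 to 21.2 TPM in Dicer LKO and 26.5 to 27.1 TPM in controls, without overlap, while its CPM with TMM factors overlapped. With library totals, 7 members did not overlap between groups (22.6%, against 29.4% of all genes): Atf4, Ddit3 and Sel1l joined the lower genes Ern1 and Syvn1, and Chac1 and Eif2ak3 were again higher.

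**Figure D5:**
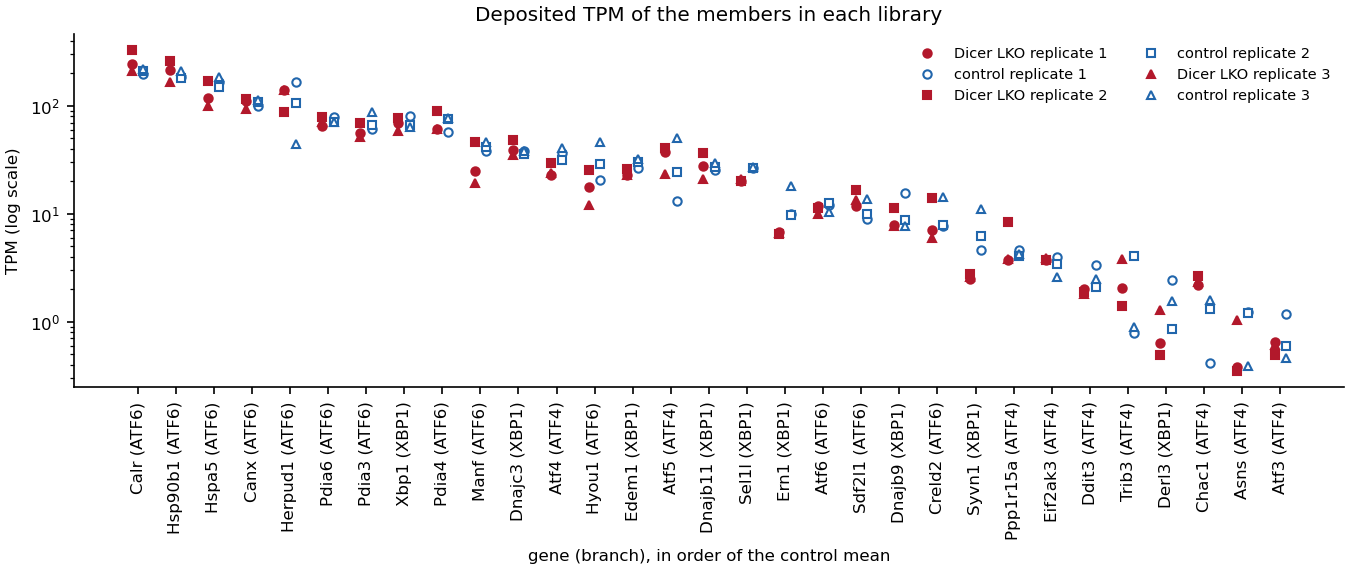
Deposited TPM of each member in each library on a log scale, ordered by the control mean, with the branch in brackets; filled red symbols are Dicer LKO and open blue symbols controls. Levels run from 330 TPM for Calr in Dicer LKO replicate 2 down to 0.350 TPM for Asns in the same library.

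Neighbouring pathways were described with 10 lists of 188 genes. Of the ER translocation genes 0 of 25 rows tested were called, of other ERAD genes 0 of 22, of tRNA synthetases 0 of 20, of eIF2 subunits and regulators 0 of 16, of ER membrane bZIP factors and their proteases 0 of 13, of cytosolic heat shock genes 0 of 16 and of mitochondrial stress genes 0 of 12. Their median log2 fold changes were 0.12, -0.06, 0.12, 0.07, -0.10, -0.13 and -0.04, beside -0.01 over all genes tested. Of these 124 rows, 10 (8.06%, against 21.0% of all genes) had an unadjusted p under 0.05 by edgeR. DESeq2 called 2 of them (1.61%, against 6.77%), Bag3 and Gcn1l1. These lists were pooled because edgeR called 0 of their genes, so low shares follow in part from that choice. The list of amino acid supply and other ATF4 targets also had 0 called and was left out of the pool. The pooled shares therefore do not describe all 10 lists. Among 23 other ER folding genes tested (median 0.14), edgeR called Nucb2, a calcium-binding nucleobindin, at 4.45, 5.003 and 6.45 CPM against 2.16, 1.97 and 1.53 CPM. Nucb2 rose by 1.48 on the log2 scale (SE 0.25, adjusted p 0.042). The 15 immediate early genes tested had log2 fold changes from -1.77 to 2.39 (median -0.04), and 7 had an unadjusted p under 0.05 (46.7%, against 21.0% of all genes). Among them Klf6, a zinc finger factor, rose by 0.87 (SE 0.13, adjusted p 0.0347 by edgeR), from 10.4, 12.7 and 11.7 CPM in controls to 21.9, 20.8 and 20.8 CPM. DESeq2 called 3 of this list, Klf6, Dusp1 and Gadd45b. Nucb2 was also called by DESeq2. Nucb2 and Klf6 were both lost with library totals (adjusted p 0.0572 for Nucb2 and 0.0683 for Klf6, by edgeR) and when any 1 library other than control replicate 1 was left out, with edgeR's adjusted p up to 0.14 for Nucb2 and 0.127 for Klf6. With 1 library left out, their log2 fold changes ran from 1.32 to 1.6 and from 0.79 to 0.96.

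The 21 tested genes of amino acid supply and other ATF4 targets had a median log2 fold change of 0.26, 15 positive and 6 negative, and edgeR called 0, with 5 at an unadjusted p under 0.05 (23.8%, against 21.0% of all genes). DESeq2 called 4 (19.0%, against 6.77%): Cebpb, Ddit4, Jdp2 and Shmt2. Ddit4, an inhibitor of mTORC1 named after its values were seen, was at 7.61, 33.5 and 13.5 CPM in Dicer LKO and at 1.67, 2.88 and 2.74 CPM in controls. It did not overlap between groups, with a log2 fold change of 2.91 (SE 0.60, adjusted p 0.0777 by edgeR). DESeq2's adjusted p for it was 1.09e-06, and the log2 fold change was 2.17 without Dicer LKO replicate 2, its highest library. Among eIF2 regulators, Gcn1l1, the activator of the kinase GCN2, and Ppp1r15b, the constitutive partner of the eIF2 phosphatase, were named in the same way. Their log2 fold changes were -0.55 (SE 0.13, adjusted p 0.0802 by edgeR) and -0.50 (SE 0.17, adjusted p 0.16), and neither overlapped between groups.

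Since Dicer makes mature miRNAs, members were searched for the site of 5 miRNAs known to be abundant in liver or widely expressed: a match to bases 2 to 8 of the miRNA in the longest annotated 3′ untranslated region. The miRNA with most member sites is shown with its seed in capitals, from RefSeq on GRCm38.p6.
mmu-miR-148a-3p: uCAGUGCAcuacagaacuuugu
Its site, TGCACTG, was present in 9 of 31 members (29.0%) and in 1942 of 12612 genes (15.4%): Hspa5, Hsp90b1, Canx, Pdia3, Manf and Atf6 of the ATF6 branch, Ern1 and Edem1 of the XBP1 branch, and Ddit3. The median log2 fold change of these 9 was -0.15, beside -0.04 for all 1942 genes with the site and 0.02 for genes without it. Sites for let-7a-5p, miR-30a-5p and miR-22-3p were present in 3 members each (9.7%), against 10.5%, 16.2% and 15.7% of genes. The site of miR-192-5p was present in 1 member (3.2%), against 7.2% of genes. These 4 shares were all below those of all genes. The median log2 fold changes of the members with these sites were 0.17, -0.19, 0.11 and 0.17 in that order. The miRNAs themselves were not measured, and the counts were not matched for the length of the region, which ran from 197 bases in Ddit3 to 5205 in Atf6 among the members with a miR-148a-3p site.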

How the data were processed

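Per the file headers, the authors deposited an expected count (the estimated reads per gene, not normalized), a TPM value (corrected for length) and an effective length for each gene and library, in the columns that RSEM writes. The submitters' processing notes list CASAVA, Bowtie and hg19, a human build, while the gene identifiers are mouse; the sources used here give no mouse build, annotation, kit or strand setting. Of the identifiers, 50376 of 50600 (99.56%) matched GENCODE M21 (GRCm38), which gave coordinates and 3′ untranslated regions; 6 further columns of a series table were not used. Groups and replicate numbers came from sample titles.

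Deposited expected counts were rounded and filtered (filterByExpr); TMM factors were applied, and all 6 libraries were tested with edgeR 4.0.16 (quasi-likelihood, robust; R 4.3.3), genotype as the only term, Benjamini-Hochberg adjusted over 14314 genes and called under 0.05. Adjusted p-values come from that test where no other tool is given. Alternatives were DESeq2 1.42.0, library totals, no filter, the replicate block and leaving out each library; leaving out Dicer LKO replicate 2 with control replicate 3 was added after seeing the data. Named genes were Dicer1, the 31 members and called genes of the pathway lists; others are marked as named after their values were seen. The members and lists were chosen with earlier results of these data known. No 2 libraries of a group agreed within sampling noise (chi-square per gene 23.9 or more). Intervals are 95% intervals of the fit.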

Additional observations from a re-analysis of the deposited data

How the results depend on the processing

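The count of genes called, 185, was 103 with library totals, 1098 with DESeq2, 422 without the filter, 245 with the replicate block, 23 to 389 when 1 library was left out (lowest without control replicate 3, highest without control replicate 1), and 44 without Dicer LKO replicate 2 and control replicate 3 together, which was chosen after seeing the data. Members called were 1 with DESeq2, without the filter and without control replicate 1, each time Syvn1, 0 to 1 over libraries left out, and 0 with library totals and the replicate block. Same-numbered libraries had deviations correlated at 0.109, 0.065 and -0.096, so the numbers were not taken to pair them; the replicate block called no member, did not call Nucb2 (1.47, adjusted p 0.0647) or Klf6 (0.87, 0.0585), and called Ddit4 (2.70, 0.0166), all by edgeR. Dicer1 was called with DESeq2 (-0.99), without the filter (-0.98) and without control replicate 1 (-1.15), and ran from -1.15 to -0.79 over libraries left out. The ATF4 median was 0.03 with library totals, 0.05 with the replicate block, -0.20 to 0.31 over libraries left out and -0.37 without both libraries; the median of all members was -0.20 to 0.16 and -0.19, and that of the ATF6 branch 0.02 to 0.24 and -0.07. Members with a positive value were 12 to 17 over libraries left out and 9 without both libraries, where 8 had an unadjusted p under 0.05 (15.0% of all genes).

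Of the 31 members, 18 kept their sign in all alternatives. The others reversed as follows, none of them called. With library totals, Atf6 was -0.056, Pdia6 -0.014 and Xbp1 -0.023; without the filter, Creld2 was 0.008. With 1 library or both libraries left out, the log2 fold change ran from -0.11 to 0.19 for Atf6, -0.012 to 0.24 for Canx, -0.28 to 0.011 for Pdia3, -0.081 to 0.28 for Pdia4, -0.062 to 0.19 for Pdia6, -0.50 to 0.34 for Creld2, -0.004 to 0.82 for Herpud1, -0.14 to 0.23 for Xbp1, -0.59 to 0.25 for Dnajb9, -0.078 to 0.37 for Dnajb11, -0.47 to 0.13 for Atf3, -0.16 to 1.58 for Trib3 and -0.37 to 0.44 for Ppp1r15a. The cause of these shifts was not tested. Asns, Derl3, Atf3 and Chac1 each had a library with under 20 counts.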

Other observations

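The following bZIP factor genes outside the members are given here, picked after their values were seen. Of the members that encode such factors, Atf4, Atf3 and Ddit3 had log2 fold changes of -0.39, -0.27 and -0.29. Those of Atf5, Xbp1 and Atf6 were 0.36, 0.10 and 0.06. Cebpd was at 16.4, 30.8 and 25.0 CPM against 6.99, 8.07 and 4.59 CPM and was called (log2 fold change 1.87, SE 0.29, adjusted p 0.0347 by edgeR; 0.0583 to 0.119 without Dicer LKO replicate 2 or 3 or any 1 control). Cebpb was at 39.3, 55.5 and 65.1 CPM against 35.2, 30.0 and 27.0 CPM, without overlap and not called (log2 fold change 0.79, SE 0.20, adjusted p 0.0918 by edgeR). Jdp2, a bZIP repressor, was at 1.88, 3.38 and 2.07 CPM against 0.811, 1.11 and 0.765 CPM, also without overlap and not called (log2 fold change 1.44, adjusted p 0.0824 by edgeR). DESeq2 called Cebpb (0.0199) and Jdp2 (0.0267). Other bZIP genes outside the members did not follow them. Jund, Junb and Creb3l3 overlapped between groups and were not called, with log2 fold changes of 0.09, 0.31 and 0.09.

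Saa1 and Bag3 were also named after their values were seen. Saa1, an acute-phase protein gene of hepatocytes, was at 1837, 8448 and 1589 CPM in Dicer LKO and at 28.8, 2911 and 10.1 CPM in controls. Dicer LKO replicate 2 was the highest of the 6 libraries for Saa1, and the groups overlapped through control replicate 2. The log2 fold change of Saa1 was 2.01 (SE 2.09, adjusted p 0.638 by edgeR). Bag3, a co-chaperone of cytosolic HSP70, went the other way, with 7.38, 9.77 and 7.25 CPM against 19.0, 10.9 and 18.8 CPM (log2 fold change -0.99, SE 0.24, adjusted p 0.0857 by edgeR).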
